A study of Rattus norvegicus with 12 samples.

Results

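Glycolysis is the chain of cytosolic enzymes that splits glucose into pyruvate, and lactate dehydrogenase then turns pyruvate into lactate, so that ATP is made without oxygen. When oxygen is scarce, hypoxia-inducible factors (HIFs) escape the prolyl hydroxylases that mark their alpha subunits for destruction, pair with a constant beta subunit and switch on many glycolytic enzymes together with genes such as Vegfa, Bnip3 and Egln3. Cartilage has no vessels of its own, chondrocytes rely largely on glycolysis, and Hif1a is known to be needed for the survival of chondrocytes in the interior of the growth plate.

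The expression of 35 genes of glycolysis and of the hypoxia response was followed through 3 zones of epiphyseal cartilage. The genes were taken by name from the annotation of the array, with the brightest transcript cluster (the set of probes read together for one transcript) standing for a gene that has several. Of the 35 genes, 34 had a named cluster, and the hexokinase Hk1 was not analysed here. The cells came from the proximal tibial epiphysis of 10-day-old Sprague-Dawley rats, untreated and of no altered genotype in the labels, dissected by hand under a microscope from eosin-stained frozen sections. The superficial zone (SZ) and the intermediate/deep zone (IDZ) belong to articular cartilage and the resting zone (RZ) to the growth plate, with 4 samples of each, hybridised to 12 Rat Gene 1.0 ST arrays of Affymetrix. Each SZ array held both tibias of 1 animal, whereas each IDZ and RZ array held the pooled tibias of 2 animals. The 8 animals that gave IDZ and RZ were the same, and 4 of them also gave SZ. Levels are log2 expression values, listed in the order of replicates 1 to 4, where 1 unit is a doubling, and the levels of different genes are not compared. The 3 comparisons (SZ against IDZ, IDZ against RZ and SZ against RZ) share arrays, and adjusted p-values come from limma with Benjamini-Hochberg adjustment over all 27342 clusters.

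The cartilage genes Col2a1, the main collagen of the tissue, and Acan, its main proteoglycan, were bright in all zones, with zone means of 13.66 to 13.84 for Col2a1 and 12.65 to 13.37 for Acan. The lubricant gene Prg4 averaged 12.78 in SZ, 10.31 in IDZ and 5.68 in RZ. Markers of other cells were not spread evenly. In SZ compared with IDZ, 10 of 11 endothelial markers (among them Cd34, Emcn, Egfl7 and Cdh5) and 14 of 14 macrophage markers (among them Lyz2, Tyrobp, Csf1r and Cd68) were higher in SZ, while 10 of 12 cartilage markers were higher in IDZ. The mean log2 level of the endothelial list ran from 8.59 to 9.14 over the arrays of SZ, from 6.49 to 6.93 over those of IDZ and from 6.32 to 6.55 over those of RZ. In the same order of zones, that of the macrophage list ran from 8.36 to 9.15, from 6.75 to 6.87 and from 6.49 to 7.09, and that of the cartilage list from 11.61 to 11.95, from 12.34 to 12.56 and from 11.99 to 12.19. Prg4 is one of the 12 cartilage markers, and without it the cartilage list ran from 11.53 to 11.86 in SZ, from 12.65 to 12.74 in IDZ and from 12.57 to 12.78 in RZ. Pericyte and smooth muscle markers were higher in SZ than in IDZ for 9 of 11 (among them Pdgfrb, Rgs5 and Des), with list means of 8.82 to 9.21 in SZ, 7.29 to 7.59 in IDZ and 7.28 to 7.44 in RZ. Each difference given below for SZ stands beside these values, and the part of the other cells in it was not tested. In such bulk samples, fewer cells of a type and less RNA per cell cannot be told apart. SZ replicate 4 had the narrowest spread of values of the 12 arrays, with an interquartile range of 2.24 against at most 2.91, and gave the lowest SZ level for 27 of the 34 genes. The share of all clusters with their lowest SZ level on that array was not counted, so that it is not known whether this number is particular to these genes.

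Most of the genes were expressed at lower levels in SZ than in the other zones. Between SZ and IDZ, 19 of the 34 genes were lower in SZ (55.9%, against 11.2% of all clusters), 5 were higher in SZ (14.7%, against 11.8%) and 10 did not pass the test. Between SZ and RZ, 21 genes were lower in SZ (61.8%, against 11.1% of all clusters), 6 were higher in SZ (17.6%, against 10.0%) and 7 did not pass. Between IDZ and RZ only 5 genes passed, 3 higher in IDZ (8.82%, against 2.78% of all clusters) and 2 higher in RZ (5.88%, against 3.95%). With the pair of animals as a block and the IDZ and RZ arrays alone, 4 genes were higher in RZ, the added ones being Pkm (adjusted p = 0.047) and Mxi1 (adjusted p = 0.0027). Leaving out SZ replicate 4 also gave 4 genes higher in RZ than in IDZ, and 20 lower and 7 higher in SZ than in IDZ. The median log2 difference of the 34 genes was -0.50 for SZ minus IDZ, 0.01 for IDZ minus RZ and -0.53 for SZ minus RZ, while over all clusters it was -0.08, 0.03 and -0.03. Over all 14300 named genes, each read from its brightest cluster, 9.56% were lower and 17.0% higher in SZ than in IDZ, 3.22% were higher in IDZ and 5.58% higher in RZ between those zones, and 12.2% were lower and 14.5% higher in SZ than in RZ. A difference of at least 2-fold was found in fewer genes. Between SZ and IDZ, 3 genes were lower in SZ (0.977% of all clusters were) and 1 was higher (2.96% of all clusters). Between SZ and RZ, 3 were lower in SZ (1.35% of all clusters) and 3 higher (3.19%), and between IDZ and RZ only Epas1 passed, higher in IDZ (0.519% of all clusters, with 0.399% higher in RZ).

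**Figure D1:**
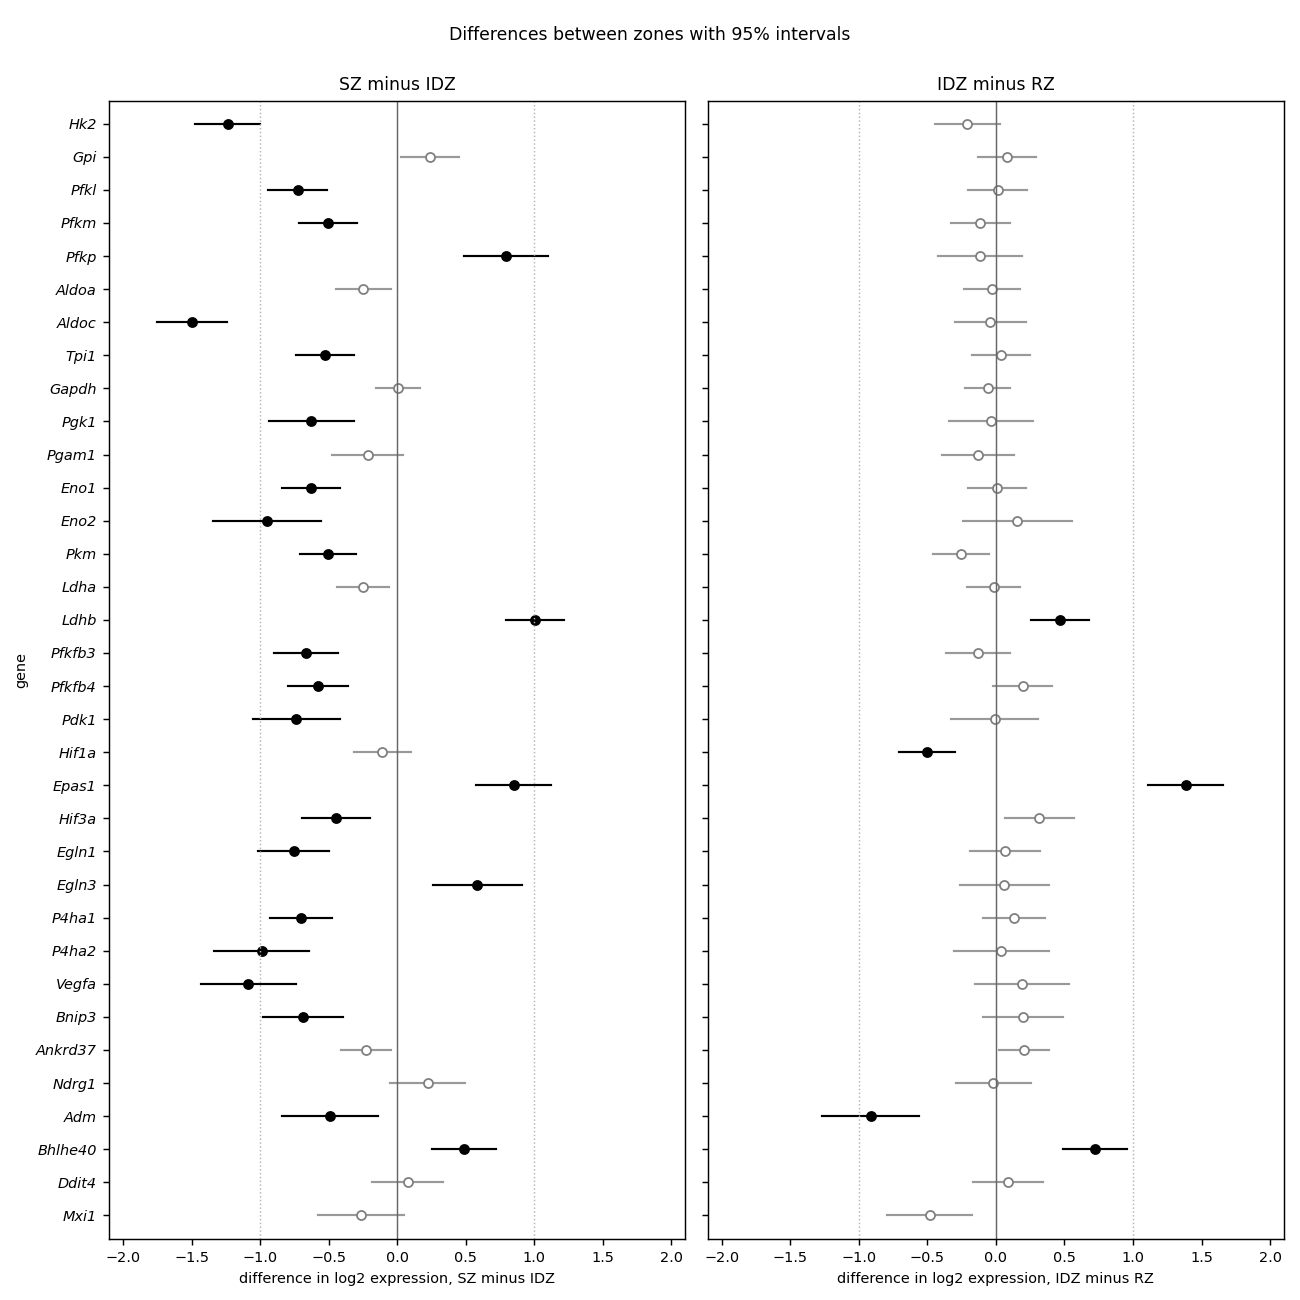
Log2 differences for the 34 genes with a cluster (rows), SZ minus IDZ on the left and IDZ minus RZ on the right, with 95% moderated confidence intervals as bars; filled black points passed an adjusted p of 0.05, open grey points did not, and dotted lines mark a 2-fold difference. On the left 19 filled points lie on the side of lower expression in SZ and 5 (Ldhb, Epas1, Bhlhe40, Pfkp and Egln3) on the other, and on the right 29 of the 34 points are open.

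Genes of 3 kinds could be told apart by which comparisons they passed. The most common kind, with 17 genes, was lower in SZ than in both other zones and did not pass between IDZ and RZ over all 12 arrays. Among them, the IDZ and RZ arrays did not overlap for Hk2, Pkm, Pfkfb4 and P4ha1. Pkm also passed between IDZ and RZ with the pair of animals as a block. The fit used 1 spread per gene for the 3 zones, and SZ could be the more variable zone. For Hk2 the SD was 0.25 in SZ, 0.07 in IDZ and 0.08 in RZ. Their differences between SZ and IDZ ranged from -0.504 to -1.497 (1.42-fold to 2.82-fold), and their 95% intervals for IDZ minus RZ lay between -0.46 and 0.55. They held enzymes from hexokinase to pyruvate kinase (Hk2, Pfkl, Pfkm, Aldoc, Tpi1, Pgk1, Eno1, Eno2 and Pkm), regulators of the flux (Pfkfb3, Pfkfb4 and Pdk1) and HIF targets (Egln1, P4ha1, P4ha2, Vegfa and Bnip3). A second kind was higher in SZ than in both other zones, with Pfkp, Egln3, Ldhb, Epas1 and Bhlhe40. In the last 3 of these RZ was also lower than IDZ. Hif1a and Adm made up the remaining kind, with RZ higher than both articular zones. The share of all clusters with each pattern was not counted. Between SZ and IDZ the second kind is 14.7% of the genes, near the 11.8% of all clusters and 17.0% of named genes. Between IDZ and RZ the remaining kind is 5.88%, near 3.95% of all clusters and 5.58% of named genes. Hif3a, Ldha, Mxi1 and Gpi passed a single comparison each, and 6 genes passed none.

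**Figure D2:**
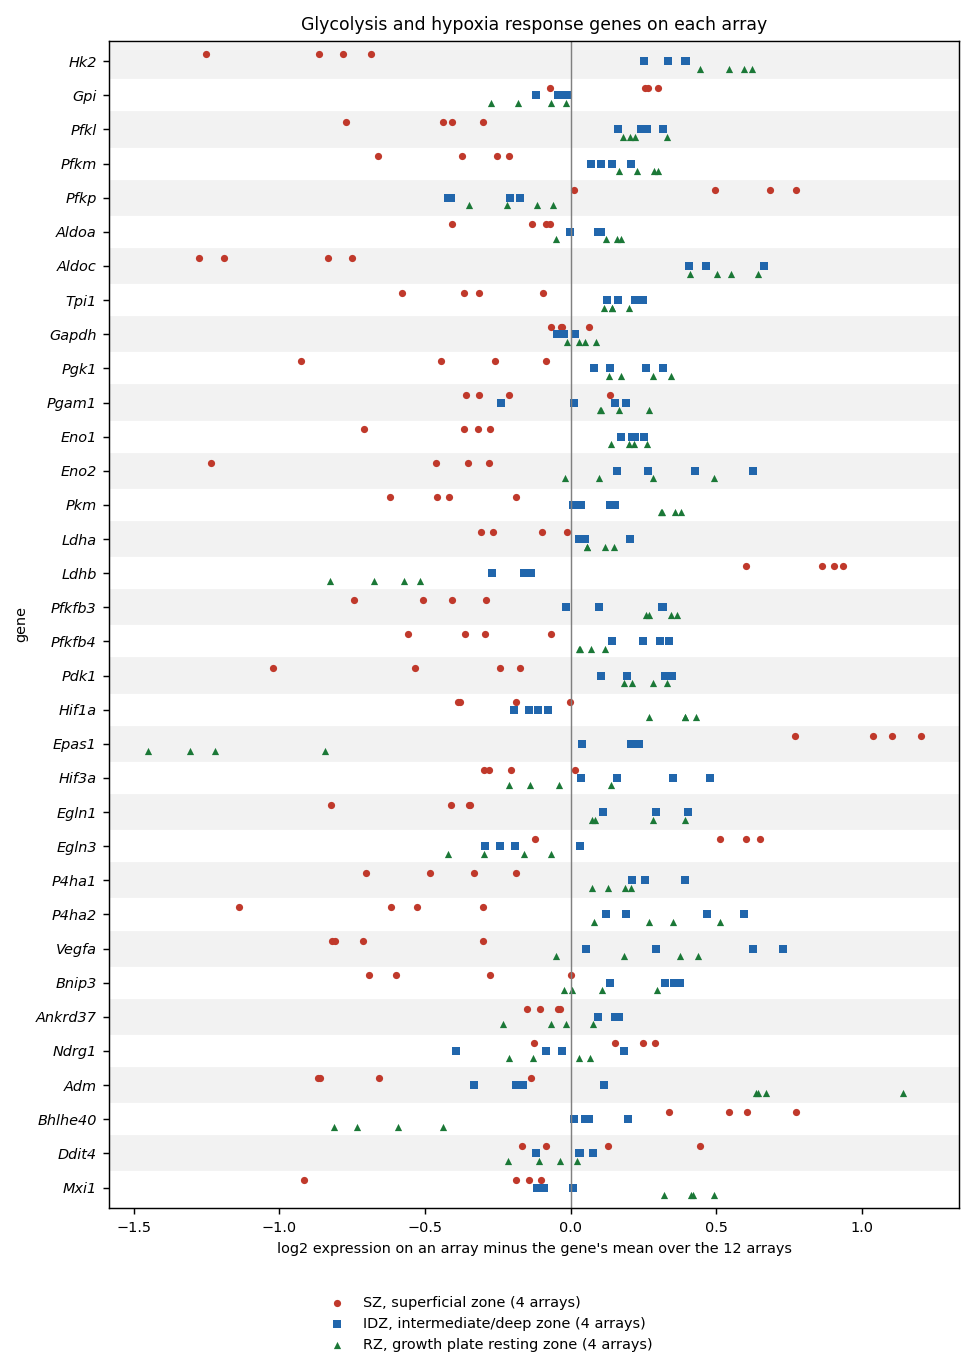
Log2 level on each of the 12 arrays minus the mean of that gene over the 12 arrays (horizontal axis) for each of the 34 genes (rows), with red circles for SZ, blue squares for IDZ and green triangles for RZ. In most rows the red circles stand to the left of the squares and triangles, and in the rows of Pfkp, Ldhb, Epas1 and Bhlhe40 they stand to the right.

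Among the enzymes that bring glucose into the pathway, Hk2, the hexokinase that traps glucose as its phosphate, showed one of the larger differences. It read 7.83, 7.74, 7.92 and 7.35 in SZ, 9.00, 9.00, 8.86 and 8.94 in IDZ and 9.20, 9.23, 9.05 and 9.15 in RZ. Every SZ array lay below every array of the other zones, and the IDZ arrays lay below the RZ arrays. Zone means were 7.71 ± 0.25 in SZ, 8.95 ± 0.07 in IDZ and 9.16 ± 0.08 in RZ (SD, n = 4), so that Hk2 was 2.36-fold lower in SZ than in IDZ (log2 difference -1.24 ± 0.11 SE, adjusted p = 1.2e-06) and 2.72-fold lower than in RZ (log2 difference -1.45 ± 0.11 SE, adjusted p = 1.4e-07). The difference between IDZ and RZ did not pass the test (-0.21, 95% interval -0.45 to 0.03, adjusted p = 0.34). Gpi, which turns glucose phosphate into fructose phosphate, averaged 11.66 ± 0.17 in SZ, 11.42 ± 0.05 in IDZ and 11.34 ± 0.12 in RZ, and passed only between SZ and RZ (0.32 ± 0.10, adjusted p = 0.03). That call was lost when the pairs of animals were a random block (adjusted p = 0.059) and without each of SZ replicates 1, 2 and 3 and RZ replicates 3 and 4 in turn, as well as with arrays centred on their median and with the 2 zones alone, its adjusted p ranging from 0.00079 to 0.11 over the alternatives.

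Phosphofructokinase, which commits sugar to glycolysis, is built from the products of 3 genes, and these did not share a zone pattern. Pfkl, the liver-type subunit, read 9.50, 9.36, 9.39 and 9.03 in SZ, 10.06, 10.12, 9.96 and 10.04 in IDZ and 10.02, 10.13, 10.00 and 9.98 in RZ. Pfkm, the muscle-type subunit, read 8.39, 8.51, 8.55 and 8.11 in SZ, 8.91, 8.83, 8.87 and 8.97 in IDZ and 9.07, 9.05, 8.93 and 8.99 in RZ. For both, the SZ arrays lay below all IDZ and RZ arrays, and IDZ and RZ overlapped. Pfkl was 1.65-fold lower in SZ than in IDZ (-0.73 ± 0.10, adjusted p = 7.9e-05) and Pfkm 1.42-fold lower (-0.51 ± 0.10, adjusted p = 0.0017). Pfkp, the platelet-type subunit, read 7.77, 7.86, 7.58 and 7.09 in SZ, 6.91, 6.87, 6.67 and 6.66 in IDZ and 6.97, 7.02, 6.86 and 6.73 in RZ. Here the order was turned, with each SZ array above each IDZ and RZ array, although SZ replicate 4 was only just above the highest RZ array. Pfkp was 1.73-fold higher in SZ than in IDZ (0.79 ± 0.14, adjusted p = 0.00075) and 1.60-fold higher than in RZ (0.68 ± 0.14, adjusted p = 0.0026). The log2 ratio of Pfkp to Pfkl within an array was thus 1.52 higher in SZ than in IDZ and 1.39 higher than in RZ.

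The 2 aldolases, which cut the sugar in the middle, both had their lowest mean in SZ but differed in extent. Aldoc, the form best known from brain, read 7.93, 7.57, 8.01 and 7.48 in SZ, 9.16, 9.22, 9.16 and 9.42 in IDZ and 9.31, 9.40, 9.17 and 9.26 in RZ. The SZ arrays lay more than 1 log2 unit below any other array, and IDZ and RZ overlapped. Aldoc showed the largest difference of the 34 genes between SZ and IDZ, 2.82-fold (-1.497 ± 0.12, adjusted p = 3.6e-07), and was 2.90-fold lower in SZ than in RZ (-1.54 ± 0.12, adjusted p = 1.6e-07). Aldoa, the muscle form that most cells use, read 11.75, 11.76, 11.70 and 11.43 in SZ, 11.93, 11.94, 11.83 and 11.93 in IDZ and 11.99, 12.01, 11.96 and 11.78 in RZ. Its SZ arrays also lay below all others, by a small margin, and no comparison passed (-0.25, 95% interval -0.45 to -0.04, adjusted p = 0.078, for SZ minus IDZ, and -0.28, 95% interval -0.48 to -0.07, adjusted p = 0.054, for SZ minus RZ). Tpi1, which interconverts the products of aldolase, averaged 11.16 ± 0.20 in SZ, 11.69 ± 0.06 in IDZ and 11.65 ± 0.04 in RZ and was 1.44-fold lower in SZ than in IDZ (-0.53 ± 0.10, adjusted p = 0.00099).

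The second stage of glycolysis yields ATP and NADH. Among the genes of the main list, its enzymes were lower in SZ than in IDZ by 1.42-fold (Pkm) to 1.93-fold (Eno2), or did not pass. Pgk1, which makes ATP, read 10.51, 10.15, 10.34 and 9.67 in SZ, 10.91, 10.85, 10.68 and 10.73 in IDZ and 10.88, 10.94, 10.73 and 10.77 in RZ. Eno1, the common enolase, read 11.37, 11.33, 11.29 and 10.94 in SZ, 11.86, 11.90, 11.82 and 11.87 in IDZ and 11.87, 11.91, 11.85 and 11.79 in RZ. Eno2, the enolase best known from neurons, read 8.84, 9.02, 8.95 and 8.07 in SZ, 9.73, 9.93, 9.57 and 9.46 in IDZ and 9.79, 9.58, 9.40 and 9.28 in RZ. For each of these genes all SZ arrays lay below all IDZ and RZ arrays, and SZ replicate 4 was the lowest. In SZ compared with IDZ, Pgk1 was 1.54-fold lower (-0.63 ± 0.14, adjusted p = 0.0049), Eno1 1.55-fold lower (-0.63 ± 0.10, adjusted p = 0.00021) and Eno2 1.93-fold lower (-0.95 ± 0.19, adjusted p = 0.0014). Eno3, an enolase gene of the wider list described below, was instead 1.60-fold higher in SZ than in IDZ (0.68 ± 0.15, adjusted p = 0.0037). Eno3 was also higher in SZ than in RZ (1.00 ± 0.15, adjusted p = 0.00014), and its SZ arrays lay above all others. Pgam2 (-0.13, adjusted p = 0.47) and Pklr (-0.12, adjusted p = 0.48) of the wider list did not pass between SZ and IDZ. Pkm, the pyruvate kinase of the last step, read 11.63, 11.36, 11.40 and 11.20 in SZ, 11.96, 11.97, 11.86 and 11.83 in IDZ and 12.18, 12.13, 12.20 and 12.13 in RZ. The 3 zones did not overlap and stood in the order SZ, IDZ, RZ, with Pkm 1.69-fold lower in SZ than in RZ (-0.76 ± 0.10, adjusted p = 2.3e-05) and IDZ minus RZ short of the threshold over all 12 arrays (-0.26, 95% interval -0.46 to -0.05, adjusted p = 0.14).

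Gapdh, often used as a reference gene, averaged 13.30 ± 0.06 in SZ, 13.29 ± 0.03 in IDZ and 13.35 ± 0.04 in RZ and passed no comparison. Its 95% interval for SZ minus IDZ ran from -0.16 to 0.17 and that for SZ minus RZ from -0.22 to 0.11. Pgam1, which moves the phosphate group before the enolase step, averaged 6.86 ± 0.22 in SZ, 7.07 ± 0.19 in IDZ and 7.21 ± 0.08 in RZ and passed no comparison either (-0.35, 95% interval -0.61 to -0.09, adjusted p = 0.057, for SZ minus RZ). Of the 16 glycolytic enzymes and lactate dehydrogenases, 9 were thus lower in SZ than in IDZ (56.25%, against 11.2% of all clusters). The 2 that were higher (12.5%) were near the 11.8% of all clusters. Compared with RZ, 10 were lower in SZ (62.5%, against 11.1% of all clusters). Another 3 were higher (18.75%, against 10.0% of all clusters and 14.5% of named genes). Between IDZ and RZ Ldhb alone passed in limma (6.25%, against 2.78% of all clusters), while 1 gene in each direction had an unadjusted p under 0.05.

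The 2 subunits of lactate dehydrogenase differed in direction. Ldha, whose product favours lactate formation, read 13.00, 12.92, 12.71 and 12.75 in SZ, 13.22, 13.07, 13.05 and 13.05 in IDZ and 13.07, 13.16, 13.13 and 13.07 in RZ. The SZ arrays lay just below the others, and the difference passed between SZ and RZ (-0.27 ± 0.09, adjusted p = 0.048) but not between SZ and IDZ (-0.25, 95% interval -0.44 to -0.06, adjusted p = 0.059). The call between SZ and RZ was lost in 10 of the 12 fits that left out an array and in 4 of 9 other alternatives, among them the pairs of animals as a random block (adjusted p = 0.057), with adjusted p from 0.0023 to 0.28 over the alternatives. These values are from the brightest cluster. The second, dimmer Ldha cluster was lower in SZ than in IDZ (-0.52 ± 0.11, adjusted p = 0.0025) and RZ (-0.52 ± 0.11, adjusted p = 0.0023). Ldhb, whose product is the form of heart and favours the use of lactate, read 8.21, 8.28, 8.25 and 7.94 in SZ, 7.07, 7.19, 7.18 and 7.21 in IDZ and 6.77, 6.52, 6.83 and 6.67 in RZ. The 3 zones were fully separated, in the order SZ, IDZ, RZ from high to low. Zone means were 8.17 ± 0.15 in SZ, 7.16 ± 0.06 in IDZ and 6.70 ± 0.14 in RZ (SD, n = 4). Ldhb was 2.01-fold higher in SZ than in IDZ (1.01 ± 0.10, adjusted p = 2.6e-06), 1.38-fold higher in IDZ than in RZ (0.47 ± 0.10, adjusted p = 0.0096) and 2.78-fold higher in SZ than in RZ (1.47 ± 0.10, adjusted p = 3.1e-08). With the brightest Ldha cluster, the log2 ratio of Ldhb to Ldha within an array was 1.25 higher in SZ than in IDZ and 0.48 higher in IDZ than in RZ. This ratio was not taken with the second Ldha cluster.

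**Figure D3:**
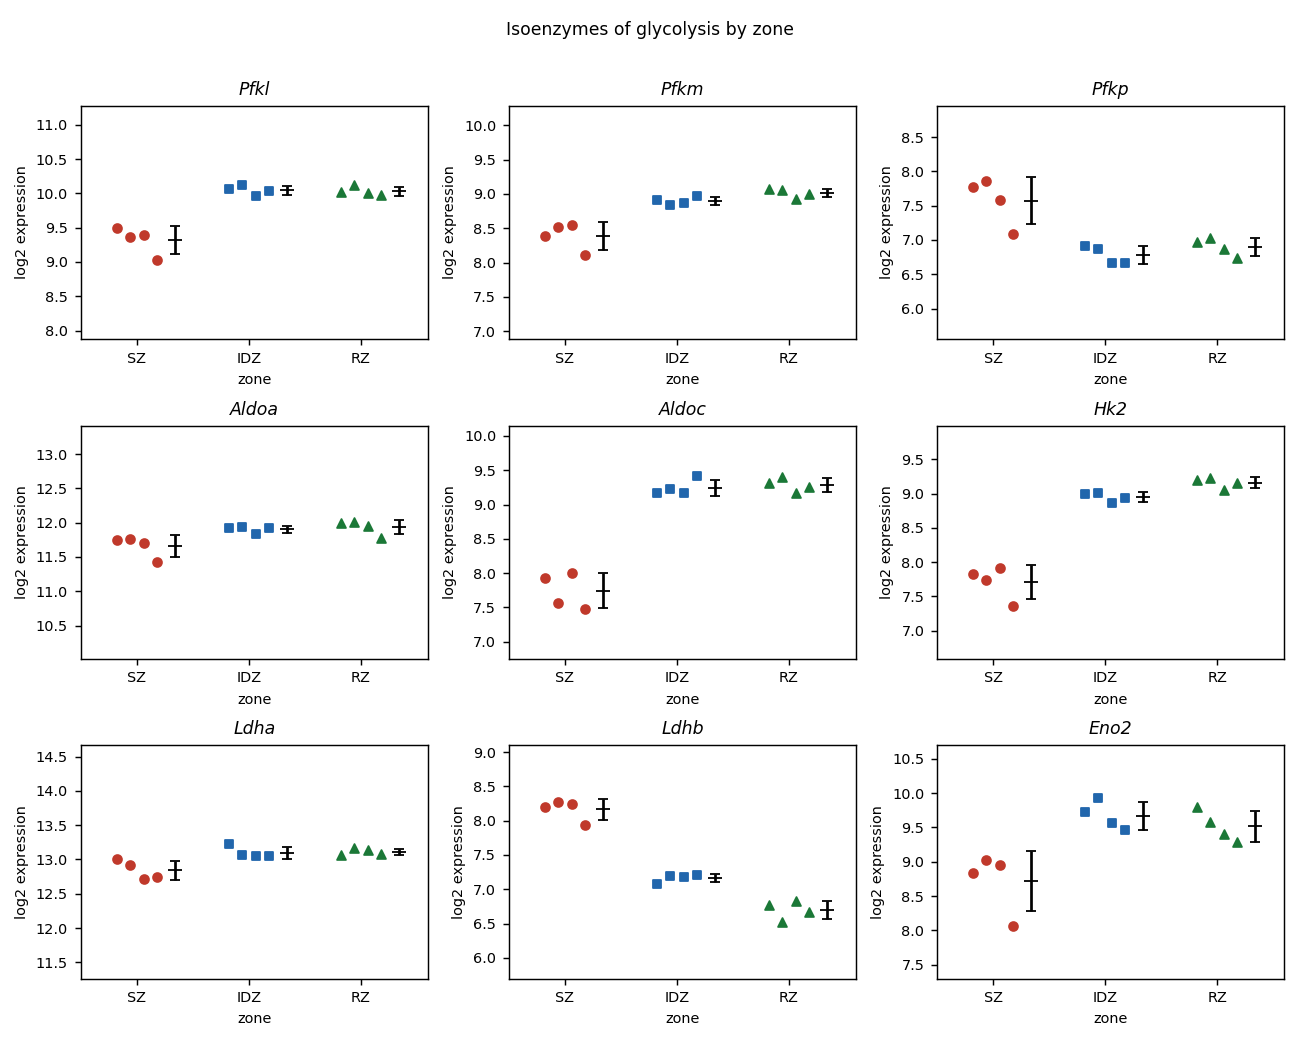
Log2 expression of Pfkl, Pfkm, Pfkp, Aldoa, Aldoc, Hk2, Ldha, Ldhb and Eno2 on the 4 arrays of each zone (red circles SZ, blue squares IDZ, green triangles RZ), with the zone mean and SD in black and a vertical span that is the same length in every panel. Pfkp and Ldhb are highest in SZ, whereas Pfkl, Pfkm, Aldoc, Hk2 and Eno2 are lowest there and Aldoa and Ldha differ little. Ldha is shown from its brightest cluster only.

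Of the regulators that set how much sugar enters glycolysis and how much pyruvate enters mitochondria, the 3 on the main list were lower in SZ. Pfkfb3, which makes the activator of phosphofructokinase, read 8.69, 8.57, 8.47 and 8.24 in SZ, 9.29, 9.30, 8.96 and 9.08 in IDZ and 9.34, 9.25, 9.32 and 9.24 in RZ. Its relative Pfkfb4 read 7.53, 7.82, 7.60 and 7.33 in SZ, 8.23, 8.20, 8.14 and 8.03 in IDZ and 8.01, 7.92, 7.92 and 7.96 in RZ. Pdk1, a kinase that shuts pyruvate dehydrogenase, read 9.13, 8.84, 9.20 and 8.36 in SZ, 9.72, 9.57, 9.48 and 9.70 in IDZ and 9.66, 9.59, 9.56 and 9.71 in RZ. In none of the 3 did an SZ array reach the lowest IDZ or RZ array. Compared with IDZ, SZ was 1.59-fold lower for Pfkfb3 (-0.67 ± 0.11, adjusted p = 0.00036), 1.49-fold lower for Pfkfb4 (-0.58 ± 0.10, adjusted p = 0.00059) and 1.66-fold lower for Pdk1 (-0.74 ± 0.15, adjusted p = 0.0019). For Pfkfb4 the highest levels were those of IDZ, while IDZ minus RZ did not pass (0.20, 95% interval -0.02 to 0.41, adjusted p = 0.32). Other genes of these steps, on the wider list, were instead higher in SZ than in IDZ. They were Pdk2 (0.58, adjusted p = 0.00079), Pdk4 (1.63, adjusted p = 2.3e-05) and Pdp1 (0.59, adjusted p = 0.0024). Mpc1 (0.62, adjusted p = 0.0068) and Pdha1 (0.47, adjusted p = 0.018) were higher in SZ too. Pdk3, Pdhb, Mpc2, Pfkfb1, Pfkfb2 and Tigar did not pass between SZ and IDZ.

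The HIF alpha subunits, which sense oxygen through their turnover as proteins, gave 3 different patterns at the RNA level. Hif1a read 11.05, 10.86, 11.24 and 10.85 in SZ, 11.13, 11.05, 11.10 and 11.16 in IDZ and 11.67, 11.63, 11.51 and 11.63 in RZ. Its SZ and IDZ arrays overlapped, and all RZ arrays lay above them. Hif1a was 1.42-fold higher in RZ than in IDZ (-0.50 ± 0.10, adjusted p = 0.0048) and 1.53-fold higher in RZ than in SZ (-0.61 ± 0.10, adjusted p = 0.00023), whereas SZ minus IDZ did not pass (-0.11, 95% interval -0.31 to 0.10, adjusted p = 0.47). Epas1, which encodes the HIF-2 alpha subunit and is prominent in endothelium, read 10.58, 10.48, 10.42 and 10.15 in SZ, 9.42, 9.62, 9.59 and 9.61 in IDZ and 8.16, 8.54, 8.07 and 7.93 in RZ. No arrays overlapped between zones, in the order SZ, IDZ, RZ from high to low. Zone means were 10.41 ± 0.19 in SZ, 9.56 ± 0.09 in IDZ and 8.18 ± 0.26 in RZ (SD, n = 4). Epas1 showed the largest difference of the 34 genes in any comparison, 4.70-fold between SZ and RZ (2.23 ± 0.13, adjusted p = 5.9e-09). It was 1.80-fold higher in SZ than in IDZ (0.85 ± 0.13, adjusted p = 0.00017) and 2.61-fold higher in IDZ than in RZ (1.38 ± 0.13, adjusted p = 6.5e-06). Of the 11 endothelial markers, none passed between IDZ and RZ in limma, where 6 were higher in IDZ at an unadjusted p under 0.05 and their median log2 difference was 0.35. The log2 ratio of Epas1 to Hif1a within an array was 0.96 higher in SZ than in IDZ and 1.89 higher in IDZ than in RZ. Hif3a, whose product can oppose the other 2, read 6.46, 6.39, 6.37 and 6.68 in SZ, 7.14, 7.02, 6.83 and 6.70 in IDZ and 6.63, 6.46, 6.81 and 6.53 in RZ. The SZ arrays lay narrowly below the IDZ arrays and RZ overlapped both, with Hif3a 1.36-fold lower in SZ than in IDZ (-0.45 ± 0.12, adjusted p = 0.011). Hif3a was dim, with a mean of 6.67 over the 12 arrays against a median of 6.83 over the means of all clusters.

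The HIF prolyl hydroxylases also went apart. Egln1, the main enzyme that marks HIF alpha subunits in the presence of oxygen, read 8.38, 8.38, 8.31 and 7.90 in SZ, 9.02, 9.13, 8.84 and 9.02 in IDZ and 9.01, 9.12, 8.80 and 8.81 in RZ. The SZ arrays lay below all others, and Egln1 was 1.69-fold lower in SZ than in IDZ (-0.76 ± 0.12, adjusted p = 0.00027) and 1.61-fold lower than in RZ (-0.69 ± 0.12, adjusted p = 0.00054). Egln3, a hydroxylase that is itself a HIF target, read 7.86, 8.00, 7.95 and 7.23 in SZ, 7.11, 7.38, 7.05 and 7.16 in IDZ and 7.05, 7.19, 7.28 and 6.93 in RZ. SZ replicates 1 to 3 lay above all other arrays, and SZ replicate 4 lay within the range of IDZ and RZ. Egln3 was higher in SZ than in IDZ (0.59 ± 0.15, adjusted p = 0.011) and, by 1.57-fold, than in RZ (0.65 ± 0.15, adjusted p = 0.0055). Both comparisons passed without SZ replicate 4 as well.

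P4ha1 and P4ha2 encode the catalytic subunits of collagen prolyl hydroxylase, which stabilises the collagen triple helix and is induced by HIF. P4ha1 read 11.24, 11.09, 11.38 and 10.87 in SZ, 11.96, 11.83, 11.83 and 11.78 in IDZ and 11.78, 11.76, 11.70 and 11.64 in RZ. P4ha2 read 9.25, 9.03, 8.94 and 8.42 in SZ, 10.15, 10.02, 9.75 and 9.67 in IDZ and 10.07, 9.91, 9.82 and 9.64 in RZ. In both, all SZ arrays lay below all others, and the ranges of IDZ and RZ overlapped for P4ha2 and all but touched for P4ha1. In SZ compared with IDZ, P4ha1 was 1.63-fold lower (-0.71 ± 0.11, adjusted p = 0.00015) and P4ha2 1.99-fold lower (-0.99 ± 0.16, adjusted p = 0.00035).

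**Figure D4:**
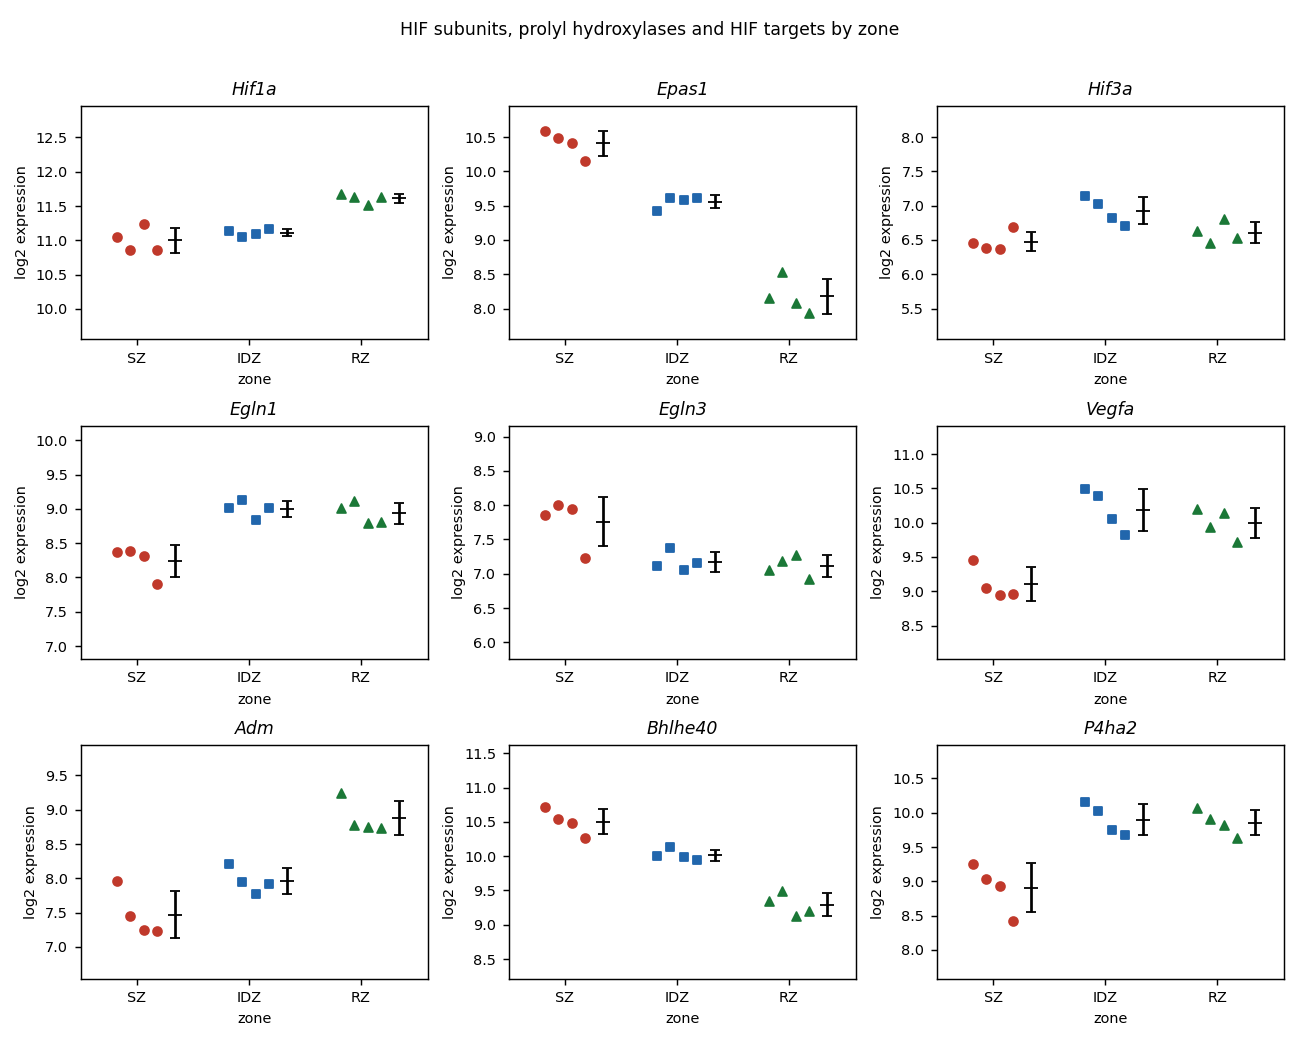
Log2 expression of Hif1a, Epas1, Hif3a, Egln1, Egln3, Vegfa, Adm, Bhlhe40 and P4ha2 on the 4 arrays of each zone (red circles SZ, blue squares IDZ, green triangles RZ), with the zone mean and SD in black. Epas1 and Bhlhe40 step down from SZ through IDZ to RZ, Adm steps up, Hif1a is highest in RZ, and Vegfa, Egln1 and P4ha2 are lowest in SZ.

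Of the other HIF targets, Vegfa, the growth factor that draws in vessels, read 9.46, 9.05, 8.94 and 8.95 in SZ, 10.49, 10.39, 10.06 and 9.82 in IDZ and 10.20, 9.94, 10.14 and 9.71 in RZ. All SZ arrays lay below all IDZ and RZ arrays, and Vegfa was 2.12-fold lower in SZ than in IDZ (-1.09 ± 0.16, adjusted p = 0.00014) and 1.86-fold lower than in RZ (-0.90 ± 0.16, adjusted p = 0.0007). Bnip3, which marks mitochondria for removal, read 11.71, 11.01, 11.43 and 11.11 in SZ, 12.06, 12.03, 11.84 and 12.08 in IDZ and 11.82, 11.71, 11.69 and 12.004 in RZ. The SZ arrays lay below the IDZ arrays, and SZ replicate 1 reached into the range of RZ. Bnip3 was 1.61-fold lower in SZ than in IDZ (-0.69 ± 0.14, adjusted p = 0.0017) and 1.40-fold lower than in RZ (-0.49 ± 0.14, adjusted p = 0.018), the latter call being lost without SZ replicate 2 (adjusted p = 0.055), without RZ replicate 4 (adjusted p = 0.066) and when the 2 zones were compared alone (adjusted p = 0.05 after rounding). Adm, which encodes the vessel-widening peptide adrenomedullin, read 7.97, 7.44, 7.24 and 7.23 in SZ, 8.21, 7.94, 7.77 and 7.92 in IDZ and 9.24, 8.77, 8.74 and 8.74 in RZ. All RZ arrays lay above all others, and SZ and IDZ overlapped through SZ replicate 1. Adm was 2.64-fold higher in RZ than in SZ (-1.40 ± 0.16, adjusted p = 1.2e-05) and 1.88-fold higher in RZ than in IDZ (-0.91 ± 0.16, adjusted p = 0.0028). Its call between SZ and IDZ (-0.49 ± 0.16, adjusted p = 0.044) was lost in 9 of the 12 fits that left out an array and in 3 of 9 other alternatives, with adjusted p from 0.0048 to 0.13 over the alternatives.

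Bhlhe40, a transcriptional repressor of the clock and of differentiation, read 10.71, 10.54, 10.48 and 10.27 in SZ, 10.00, 10.13, 9.98 and 9.95 in IDZ and 9.34, 9.50, 9.12 and 9.20 in RZ. The zones did not overlap and stood in the order SZ, IDZ, RZ from high to low. Bhlhe40 was 1.40-fold higher in SZ than in IDZ (0.48 ± 0.11, adjusted p = 0.0043), 1.65-fold higher in IDZ than in RZ (0.72 ± 0.11, adjusted p = 0.00067) and 2.31-fold higher in SZ than in RZ (1.21 ± 0.11, adjusted p = 7.5e-07). Mxi1, an antagonist of Myc, read 8.16, 8.11, 8.20 and 7.38 in SZ, 8.21, 8.31, 8.21 and 8.19 in IDZ and 8.62, 8.79, 8.72 and 8.71 in RZ. The RZ arrays lay above all others, and Mxi1 was 1.68-fold higher in RZ than in SZ (-0.75 ± 0.15, adjusted p = 0.0014). Ankrd37 averaged 6.71 ± 0.05 in SZ, 6.94 ± 0.03 in IDZ and 6.73 ± 0.13 in RZ, Ndrg1 9.07 ± 0.19 in SZ, 8.85 ± 0.24 in IDZ and 8.87 ± 0.13 in RZ and Ddit4, which restrains mTOR signalling, 8.67 ± 0.27 in SZ, 8.59 ± 0.08 in IDZ and 8.50 ± 0.10 in RZ. None of these last 3 passed a comparison. Over the 6 genes that passed none (with Aldoa, Gapdh and Pgam1), the 95% intervals of all 3 comparisons lay between -0.61 and 0.49.

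HIFs bind DNA at the core ACGTG or GCGTG. In the promoter windows of RefSeq on assembly GRCr8, 250 bases before to 50 bases after a start, these letters were searched on both strands, so that CACGT and CACGC also count and the palindrome CACGTG, which is an E-box too, counts as 2 overlapping matches. A window was given for 32 of the 34 genes, all but Pgk1 and Ndrg1, and 24 of the 32 (75.0%) held a match, as did 44.6% of the 27457 genes with a window. Of the 7 genes that passed a comparison with at least 2-fold, 3 had windows with matches, a share near the 44.6% of all genes with a window. They were Aldoc (chr10:63715294-63715593, plus strand), Ldhb (chr4:177177359-177177658, minus strand) and Bhlhe40 (chr4:143174200-143174499, plus strand). These 3 are shown, with Ldha (chr1:106507842-106508141, plus strand) added as the partner of Ldhb. The part of the matches in the zone differences was not tested. Capitals mark the matches.
Aldoc: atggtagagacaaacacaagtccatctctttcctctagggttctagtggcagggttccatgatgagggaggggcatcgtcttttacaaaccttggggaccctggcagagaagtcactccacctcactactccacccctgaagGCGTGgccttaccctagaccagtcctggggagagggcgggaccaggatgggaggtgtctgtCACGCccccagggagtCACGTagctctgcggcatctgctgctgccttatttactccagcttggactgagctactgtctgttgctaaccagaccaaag
Bhlhe40: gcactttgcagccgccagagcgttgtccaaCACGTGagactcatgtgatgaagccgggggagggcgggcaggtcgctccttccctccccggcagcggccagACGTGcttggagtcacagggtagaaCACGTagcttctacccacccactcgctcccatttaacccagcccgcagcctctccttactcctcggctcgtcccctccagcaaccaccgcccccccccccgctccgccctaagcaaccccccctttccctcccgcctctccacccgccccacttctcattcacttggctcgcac
Ldhb: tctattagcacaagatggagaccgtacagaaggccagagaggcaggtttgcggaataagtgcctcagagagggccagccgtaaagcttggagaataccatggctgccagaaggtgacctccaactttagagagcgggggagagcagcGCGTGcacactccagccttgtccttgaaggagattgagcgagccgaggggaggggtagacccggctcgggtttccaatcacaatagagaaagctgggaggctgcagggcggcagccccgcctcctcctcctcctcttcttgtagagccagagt
Ldha: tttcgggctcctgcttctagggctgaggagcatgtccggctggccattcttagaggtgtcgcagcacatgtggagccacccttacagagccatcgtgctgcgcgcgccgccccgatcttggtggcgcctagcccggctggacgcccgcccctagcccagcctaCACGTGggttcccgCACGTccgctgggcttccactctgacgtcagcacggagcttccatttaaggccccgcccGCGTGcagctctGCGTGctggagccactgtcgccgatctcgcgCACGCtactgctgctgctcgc
Matches were thus found for Aldoc, which was lowest in SZ, and for Ldhb and Bhlhe40, which were highest there. The windows of Hk2, Vegfa, Epas1 and Adm, the others of the 7 genes with a 2-fold difference, held no match. Nor did those of Egln3, Pfkfb4, Pkm and Tpi1. This says only that these letters are not in the windows.

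A wider list of 80 genes of the same pathways, 71 of them with a cluster, was read in the same way. Between SZ and IDZ, 25 of the 71 were lower (35.2%, against 11.2% of all clusters) and 17 higher in SZ (23.9%, against 11.8%), with a median log2 difference of -0.14. Between SZ and RZ 27 were lower (38.0%, against 11.1%) and 14 higher in SZ (19.7%, against 10.0%). Between IDZ and RZ 3 were higher in each zone (4.23%), near the shares of all clusters (2.78% higher in IDZ and 3.95% higher in RZ). The 38 HIF pathway genes and HIF targets held 20 that were lower (52.6%) and 7 that were higher (18.4%) in SZ than in IDZ. Among the 33 genes of glycolysis, glycogen, gluconeogenesis and pyruvate, 5 were lower (15.2%, near the 11.2% of all clusters) and 10 higher (30.3%, against 11.8% of all clusters and 17.0% of named genes).

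Of the genes that handle glycogen, Pygl, the phosphorylase of liver, averaged 7.48 ± 0.31 in SZ, 9.39 ± 0.15 in IDZ and 9.81 ± 0.12 in RZ (SD, n = 4) and was lower in SZ than in IDZ (-1.91 ± 0.14, adjusted p = 1.2e-07). Gys1, the glycogen synthase of muscle, averaged 8.18 ± 0.36 in SZ, 9.60 ± 0.13 in IDZ and 9.43 ± 0.08 in RZ and was lower in SZ as well (-1.42 ± 0.14, adjusted p = 3.3e-06), as was Pgm1, which links glycogen to glucose phosphate (-1.16 ± 0.13, adjusted p = 1.2e-05). The glycogen branching enzyme Gbe1 was lower in SZ than in IDZ too (-0.60 ± 0.15, adjusted p = 0.0096). The other phosphorylases Pygb (-0.20, 95% interval -0.47 to 0.06, adjusted p = 0.28) and Pygm (-0.14, 95% interval -0.42 to 0.15, adjusted p = 0.51) did not pass between SZ and IDZ. Pgm2, a relative of Pgm1, was instead higher in SZ (0.73 ± 0.16, adjusted p = 0.0031). Hypoxia-inducible genes that were lower in SZ than in IDZ by at least 2-fold included Ak4, an adenylate kinase of mitochondria (-1.83 ± 0.16, adjusted p = 8.1e-07), P4ha3, another collagen prolyl hydroxylase subunit (-1.32 ± 0.14, adjusted p = 6.2e-06), and Vldlr, a lipoprotein receptor (-1.29 ± 0.19, adjusted p = 0.00015). The glucose transporter Slc2a1 averaged 9.74 ± 0.41 in SZ, 10.75 ± 0.20 in IDZ and 10.78 ± 0.24 in RZ and was lower in SZ than in RZ (-1.05 ± 0.18, adjusted p = 0.00045).

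The same lists held genes that were higher in SZ than in IDZ by at least 2-fold. Of the 38 HIF pathway genes and HIF targets, 4 were higher and 6 lower in SZ by as much. Of the 33 genes of glycolysis, glycogen, gluconeogenesis and pyruvate, 2 were higher and 3 lower. Over all clusters, 2.96% were higher and 0.977% lower in SZ by at least 2-fold. The chemokine Cxcl12 averaged 9.75 ± 0.23 in SZ, 7.39 ± 0.11 in IDZ and 6.90 ± 0.31 in RZ and Flt1, a VEGF receptor of endothelium, 8.68 ± 0.25 in SZ, 6.43 ± 0.17 in IDZ and 6.38 ± 0.19 in RZ, with differences between SZ and IDZ of 2.36 and 2.24. Igfbp3, which binds insulin-like growth factors (1.83 ± 0.19, adjusted p = 3.4e-06), Pdk4, the pyruvate dehydrogenase kinase of fasting and fat use (1.63 ± 0.20, adjusted p = 2.3e-05), Angptl4, an inhibitor of lipoprotein lipase (1.17 ± 0.23, adjusted p = 0.0014), and Gpd1, which links glycolysis to glycerol lipids (1.15 ± 0.21, adjusted p = 0.00077), were also higher in SZ. Pdk1 and Pdk4, which act on the same enzyme, thus differed in opposite directions between SZ and IDZ. Between IDZ and RZ, Cxcr4, the receptor of Cxcl12, averaged 7.61 ± 0.14 in SZ, 7.13 ± 0.15 in IDZ and 8.94 ± 0.18 in RZ and was higher in RZ (-1.81 ± 0.11, adjusted p = 1.4e-07). Bhlhe41, the closest relative of Bhlhe40, averaged 8.44 ± 0.22 in SZ, 9.33 ± 0.09 in IDZ and 10.51 ± 0.06 in RZ and was higher in RZ than in IDZ (-1.18 ± 0.11, adjusted p = 4.9e-06) and SZ (-2.07 ± 0.11, adjusted p = 1.7e-09), the reverse of the order of Bhlhe40.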

How the data were processed

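Total RNA from the 12 samples was labelled and hybridised to GeneChip Rat Gene 1.0 ST arrays. The authors imported the scans into Partek Genomics Suite 6.6 and applied RMA (background correction, quantile normalisation and median polish), and the deposited log2 values were used without further scaling. Array medians lay between 6.76 and 6.90. Of 27342 clusters, 15068 carried 1 gene symbol in the platform annotation, 323 several and 11951 none. Genes were matched by symbol, with 2 symbols updated, and read from their brightest cluster. The members and gene lists were chosen with earlier results of these data known.

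One mean per zone was fitted to the 12 arrays with limma 3.58.1 in R 4.3.3, with 3 contrasts, eBayes and Benjamini-Hochberg adjustment over all clusters. A call was an adjusted p under 0.05 with no minimum fold, and ± after a difference is its moderated SE. The steps were tested on simulated data. The study's methods used a one-way analysis with a 2-fold minimum, which was run as an alternative with other variance moderation, scalings, filters and samples.

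Per the labels, an IDZ sample and the RZ sample that bears its number were pooled from one pair of animals. Correlations of their deviations from the mean of the zone were 0.02, 0.02, 0.03 and 0.21 for the 4 pairs, and fits with the pair as a block were run too. SZ samples came from single animals 5 to 8. Every member is named, with its value on every array where it passed and differed by at least 1.5-fold, for HIF subunits, and for isoenzymes of such members. Genes of the wider list are named from 2-fold, at most 6 in each direction. Slc2a1 and the genes of that list named with smaller differences were chosen after their values were seen. The number of arrays limits the precision, and no scan dates were used here, so that batches were not tested.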

Additional observations from a re-analysis of the deposited data

Results flagged for a closer look

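Among the 102 sets of 4 arrays (34 genes in 3 zones), 7 held an array that stood apart, the gap to its nearest neighbour divided by the range of the set being above Dixon's 95% critical value for 4 values. Chance gives such an array in about 1 of 20 sets. On SZ replicate 4, Gpi read 11.40 against 11.73 to 11.77 on the other SZ arrays (ratio 0.876), Egln1 read 7.90 against 8.31 to 8.38 (ratio 0.860) and Mxi1 read 7.38 against 8.11 to 8.20 (ratio 0.892). On IDZ replicate 1, Ldha read 13.22 against 13.05 to 13.07 (ratio 0.883) and Epas1 9.42 against 9.59 to 9.62 (ratio 0.856). Aldoa on IDZ replicate 3 read 11.83 against 11.93 to 11.94 (ratio 0.927), and Adm on RZ replicate 1 read 9.24 against 8.74 to 8.77 (ratio 0.935). Without SZ replicate 4, Gpi was higher in SZ than in IDZ (0.32 on the log2 scale, adjusted p = 0.0053 in limma) and Mxi1 lower in IDZ than in RZ (-0.48, adjusted p = 0.00026).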

How the results depend on the processing

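Of the 56 calls made for a gene in a comparison, 52 were kept under every alternative other than a 2-fold minimum, and none changed direction. The 4 that were not (Adm between SZ and IDZ, and Bnip3, Gpi and Ldha between SZ and RZ) are given with the results. Of the 46 comparisons of a gene that did not pass, 10 passed under some alternative. With a 2-fold minimum, by the limma contrasts or by the overall one-way p of the study's methods, SZ against IDZ left 1 gene higher in SZ and 3 higher in IDZ, IDZ against RZ left 1 higher in IDZ and 0 higher in RZ, where the largest difference was 1.88-fold and 4 genes had an unadjusted p under 0.05 without the fold minimum, and SZ against RZ left 3 and 3. Genes higher in RZ than in IDZ numbered 4, rather than 2, with the fixed replicate block by pairs of animals and when the 2 zones were compared alone. The replicate block as a random effect changed the calls of Gpi and Ldha between SZ and RZ and no other. Leaving out each array in turn gave 5 to 7 genes higher in SZ and 18 to 20 higher in IDZ, 3 to 3 higher in IDZ and 2 to 4 higher in RZ (4 without SZ replicate 4), and 5 to 6 higher in SZ and 20 to 21 higher in RZ. The cause of these changes was not tested. Other scalings moved the median of all clusters by at most 0.07.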

Other observations

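Some of the genes have further clusters under their symbol. The second Ldha cluster was lower in SZ than in IDZ (-0.52 on the log2 scale, adjusted p = 0.0025 in limma), where the brightest did not pass. It was also lower in SZ than in RZ (-0.52, adjusted p = 0.0023), where the brightest passed narrowly (-0.27, adjusted p = 0.048). Both further Mxi1 clusters were lower in IDZ than in RZ (-0.42 each, adjusted p = 0.048 and 0.038), where the brightest did not pass (adjusted p = 0.064). None of the 16 Gapdh clusters passed a comparison. Tpi1 also occurs in a cluster that the annotation shares with Tpi1l1, which was not read here.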
